A study of Mus musculus with 2 samples.

Results

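The fatty acid binding proteins and acyl-CoA synthetases described here are 10 genes that receive long-chain fatty acids in the cell and turn them into acyl-CoA: Fabp3, Fabp4, Fabp5, Acsl1, Acsl3, Acsl4, Acsl5, Slc27a1, Slc27a2 and Slc27a4. They were chosen by name and by their known role, with earlier results of these data known. They make up 10 of the 15523 named genes that had at least 1 read, and all 10 were detected in both libraries. Reads were taken per transcript and summed to genes. GENCODE M21 annotates 49 transcripts for these genes, of which 30 were listed in at least 1 library, 29 in the cold library and 28 in the control.

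The study sequenced native poly(A)+ RNA of mouse interscapular brown adipose tissue on a nanopore, a method in which each read is a single RNA molecule read from its 3′ end without amplification. The cold group is 1 library from a pool of 3 male wild type C57BL/6N mice, 20 weeks old, that were housed singly at 4 °C for 24 h. The control group is 1 library of the same tissue, sex, strain and age, labelled ctrl, with general housing at 22 to 24 °C. How many control mice it came from is not given in the sources used here. In the labels, the treatment protocol of both samples describes the cold, so the groups were taken from the treatment characteristic alone. The extraction protocol names a fat depot that differs from the tissue in the labels.

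The cold library held 1215617 reads and the control library 1698124 reads. Levels are reads per 1000000 reads (RPM) after scaling by trimmed means, and a value in parentheses after a level ratio or share is a 95% interval for counting error alone. Each group is 1 library, so the spread between replicates is unknown, the conditions could not be tested and no p-values are given. All differences are between these 2 libraries. In bulk tissue, fewer cells of a type and less RNA per cell cannot be told apart. The tissue label was checked against brown adipocyte markers: all 12 were detected, and Ucp1, the uncoupling protein that releases heat, had 14526 reads in the cold library and 14860 in the control. Their summed level was 18076 RPM in the cold library and 15560 in the control, and 5 of the 12 had intervals above a ratio of 1 and 1 below it.

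Long-chain fatty acids are poorly soluble in water. In the cytosol they are bound by fatty acid binding proteins, small barrel-shaped carriers, and they can enter metabolism only after an acyl-CoA synthetase has joined them to coenzyme A. The long-chain synthetases (Acsl genes) sit on the endoplasmic reticulum, mitochondria and lipid droplets. The Slc27a genes encode fatty acid transport proteins, which promote uptake and have acyl-CoA synthetase activity themselves. In brown fat the acyl-CoA made in this way is burned in mitochondria for heat or stored as triglyceride, and cold raises the demand for it.

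The 10 genes did not differ in a single direction. Fabp3 and Slc27a2 were higher by 2-fold or more in the cold library, with intervals off a ratio of 1, and Fabp5 and Acsl3 were lower by 2-fold or more. These 2 higher and 2 lower genes are read against 7529 genes that had 20 or more summed reads, of which 8.27% passed the same rule, 4.2% as higher (316 genes) and 4.08% as lower (307 genes). With no minimum fold, 5 of the 10 genes had an interval above a ratio of 1, where 11.3% of all genes did. Another 2 had an interval below it, where again 11.3% of all genes did, and 22.6% of all genes had an interval off 1 in either direction. An interval is narrower at higher read counts, and 7 of the 10 genes had at least 100 summed reads, against 2677 of the 7529. The 10 genes and the background are thus not matched in depth. The 3 genes whose intervals spanned 1 were Acsl4, Slc27a1 and Slc27a4. The median log2 ratio was 0.26 over the 10 genes and 0.00 over all 7529. Scaling by total counts moved the median of all genes by 0.18 and, among genes passing the 2-fold rule, the share that was higher to 73.4%, against 50.7% with trimmed means. None of the 7 genes with an interval off 1 changed direction under it.

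**Figure D1:**
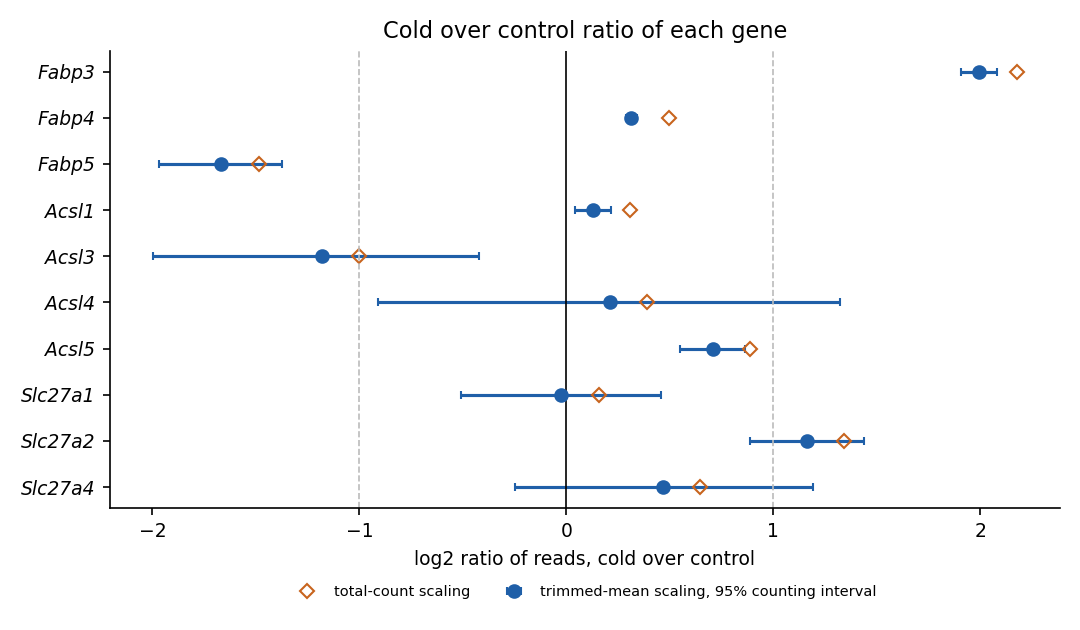
Log2 ratio of reads in the cold library over the control library (horizontal axis, no prior count) for each of the 10 genes, 1 library a group. Filled points use trimmed-mean scaling and bars are 95% counting intervals, open diamonds use total counts, and dashed lines mark 2-fold. Fabp3 lies farthest to the right and Fabp5 farthest to the left, and the intervals of Acsl4, Slc27a1 and Slc27a4 span 0.

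As a family, the fatty acid binding proteins took 2.09% of all reads in the cold library (25410 reads) and 1.32% in the control (22469 reads). Their summed level was 1.39-fold higher in the cold library (1.37 to 1.42). The 4 long-chain synthetases together had 2777 reads in the cold library and 2875 in the control, a summed level 1.19-fold higher in the cold library (1.13 to 1.26). The 3 Slc27a genes together had 416 reads in the cold library and 289 in the control, 1.78-fold higher (1.52 to 2.07). All 10 genes together took 2.35% of reads in the cold library and 1.51% in the control.

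Per kilobase of the main transcript, levels spanned a wide range, from Fabp4 to Acsl4. In the cold library the order was Fabp4 (17931 RPM per kilobase), Fabp3 (4230), Acsl1 (390), Acsl5 (141), Fabp5 (93.2), Slc27a2 (82.6), Slc27a1 (20.8), Slc27a4 (7.05), Acsl3 (3.91) and Acsl4 (2.20). The counting intervals of neighbours overlapped for Fabp5 and Slc27a2, for Slc27a4 and Acsl3, and for Acsl3 and Acsl4. In the control library the same scale gave Fabp4 (14417), Fabp3 (1061), Acsl1 (357), Fabp5 (296), Acsl5 (86.4), Slc27a2 (36.9), Slc27a1 (21.2), Acsl3 (8.89), Slc27a4 (5.10) and Acsl4 (1.90). There the only neighbours with overlapping intervals were Acsl3 and Slc27a4. On this scale Fabp5 stood behind Acsl5 in the cold library and ahead of it in the control, and Acsl3 and Slc27a4 also swapped places. Since a read here is a molecule whatever its length, RPM gives an order by molecules. In the cold library that order was Fabp4, Fabp3, Acsl1, Acsl5, Slc27a2, Fabp5, Slc27a1, Slc27a4, Acsl3 and Acsl4. In the control it was Fabp4, Acsl1, Fabp3, Acsl5, Fabp5, Slc27a2, Slc27a1, Acsl3, Slc27a4 and Acsl4. By RPM Fabp5 stood behind Acsl5 in both libraries, so that swap holds per kilobase alone. The pairs that swapped by RPM were Fabp3 and Acsl1, Slc27a2 and Fabp5, and Slc27a4 and Acsl3.

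**Figure D2:**
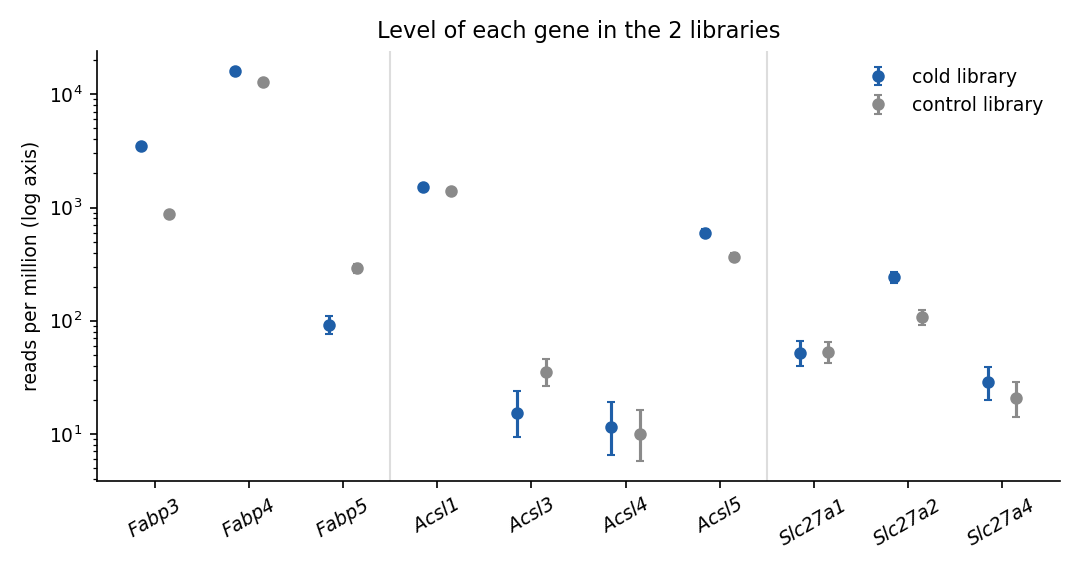
Level of each gene in RPM (vertical log axis), trimmed-mean scaling, cold library in blue and control library in grey, 1 library each, with 95% counting intervals. Fabp4 is the highest in both libraries, at 16066 in the cold library and 12918 in the control, and Acsl4 the lowest, at 11.6 in the cold library and 10.03 in the control.

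The 3 binding proteins share a gene structure. Each has 4 exons, exon 2 is 173 bases and exon 3 is 102 bases in all 3, and the coding sequences total 399 bases in Fabp3, 396 in Fabp4 and 405 in Fabp5. Over the 275 bases of exons 2 and 3 together, which align without gaps, Fabp3 and Fabp4 were identical at 181 bases (65.8%), Fabp4 and Fabp5 at 169 (61.5%) and Fabp3 and Fabp5 at 156 (56.7%). Exon 3 is shown from the GENCODE transcripts to let the reader see how far the 3 messages can be told apart by sequence. It lies at chr4:130313954-130314055 (+) for Fabp3, chr3:10205241-10205342 (-) for Fabp4 and chr3:10015472-10015573 (+) for Fabp5 on GRCm38. Capitals mark the 44 of 102 bases that are the same in all 3.
Fabp3 exon 3: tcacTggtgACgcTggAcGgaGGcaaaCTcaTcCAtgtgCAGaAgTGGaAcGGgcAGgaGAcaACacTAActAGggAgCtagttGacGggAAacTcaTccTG
Fabp4 exon 3: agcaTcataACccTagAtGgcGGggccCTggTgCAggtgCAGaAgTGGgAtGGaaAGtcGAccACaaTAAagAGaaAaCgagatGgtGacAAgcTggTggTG
Fabp5 exon 3: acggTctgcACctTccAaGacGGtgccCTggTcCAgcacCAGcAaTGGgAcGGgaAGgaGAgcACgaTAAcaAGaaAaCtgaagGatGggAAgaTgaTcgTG
The identical bases are spread along the exon and make up fewer than 50% of it. Of all annotated transcripts, only the pseudogenes Fabp3-ps1 and Gm6166 shared at least 50% of their 31-base words with a binding protein, with Fabp3 and Fabp5 as their partners, and both had 0 reads in each library.

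Fabp3 encodes the heart-type binding protein, which heart, skeletal muscle and brown fat use for fatty acids bound for oxidation. The gene (ENSMUSG00000028773, chr4:130308595-130315463, + strand, GRCm38) had 4504 reads in the cold library and 1393 in the control. Its level was 3481 RPM in the cold library and 873 in the control. That is 3.99-fold higher in the cold library (3.75 to 4.24), a log2 ratio of 2.00 and rank 80 from the highest among the 7529 genes. By level it stood at rank 26 of all genes in the cold library and 124 in the control. All of its reads were on its single annotated transcript, Fabp3-201. Zcchc17, on the opposite strand over part of Fabp3, had 21 reads in the cold library and 32 in the control.

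Skeletal muscle also makes Fabp3, and muscle markers moved with it. Over all genes with at least 20 summed reads, 11.3% had an interval above a ratio of 1 and 4.2% were higher by 2-fold or more. All 15 markers of fast muscle had intervals above a ratio of 1, 14 of them 2-fold or more, with a median log2 ratio of 2.16. Their summed level was 1812 RPM in the cold library and 464 in the control, 3.91-fold higher in the cold library (3.596 to 4.25). Of 7 markers of slow muscle, 6 had enough reads and all 6 were higher by 2-fold or more in the cold library, with a summed level over the list of 151 RPM in the cold library and 16.9 in the control. The highest of them by reads, the cardiac and slow light chain Myl2, had 46 reads in the cold library and 6 in the control. The difference in Fabp3 between the libraries was 2608 RPM, against 1349 for the 15 fast markers summed and 134 for the slow ones. These sums cover the listed markers alone and do not measure how much Fabp3 RNA muscle brought. The muscle markers' part in the Fabp3 result was not tested.

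Fabp4 encodes the adipocyte binding protein, a classic adipocyte marker that capillary endothelium and macrophages also make. The gene (ENSMUSG00000062515, chr3:10204088-10208576, - strand) had 20787 reads in the cold library and 20610 in the control. Its level was 16066 RPM in the cold library and 12918 in the control, 1.24-fold higher in the cold library (1.22 to 1.27). It stood at rank 11 of all genes by level in the cold library and 14 in the control. The interval is narrow because the counts are large, and it does not cover the choice of scaling, under which the size changed and the direction did not. The log2 ratio was 0.31 with trimmed means, 0.29 with DESeq2 size factors and 0.49 with total counts, where the median of all genes was 0.18.

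Fabp5 encodes the epidermal-type binding protein, which macrophages, endothelium and adipocytes also make. The gene (ENSMUSG00000027533, chr3:10012548-10016607, + strand) had 119 reads in the cold library and 466 in the control. Its level was 92.0 RPM in the cold library and 292 in the control, 3.18-fold lower in the cold library (2.59 to 3.92), with a log2 ratio of -1.66. It was the gene with the lowest ratio of the 10 and stood at rank 78 from the lowest of all 7529. Fabp3 and Fabp5 thus lay at opposite ends of the list, with Fabp4 between them.

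Markers of other cell types that can make Fabp4 and Fabp5 were set beside them. Over all genes with at least 20 summed reads, 11.3% had an interval above a ratio of 1 and 11.3% below it. At 2-fold or more, 4.2% of all genes were higher and 4.08% lower in the cold library. Of the epidermal keratins Krt1, Krt5, Krt10, Krt14 and Krt15, 4 had 0 reads in both libraries, and Krt10 had 8 reads in the cold library and 3 in the control. The 11 endothelial markers had a summed level of 550 RPM in the cold library and 454 in the control, with a median log2 ratio of 0.16 and 2 intervals above 1 and 0 below. Of 12 macrophage markers 4 had at least 20 reads, 2 of them with intervals above 1, and the summed level was 115 RPM in the cold library and 81.5 in the control. Adgre1, the gene of the macrophage antigen F4/80, had 0 reads in the cold library and 2 in the control. The 6 general adipocyte markers summed to 4836 RPM in the cold library and 5061 in the control, a ratio of 0.956 (0.924 to 0.988), with 2 intervals above 1 and 3 below. Of 4 white adipocyte markers 3 were higher by 2-fold or more and 1, Lep, lower, and their summed level was 313 RPM in the cold library and 121 in the control. The 6 fibroblast markers summed to 211 RPM in the cold library and 221 in the control, with 1 interval above 1 and 1 below. The part of these cells in the results for Fabp4 and Fabp5 was not tested.

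Shares within the family do not depend on how the libraries are scaled. Fabp3 made up 17.7% of binding protein reads in the cold library (17.3 to 18.2) and 6.20% in the control (5.89 to 6.52), a difference of 11.5 percentage points (11.0 to 12.1). Fabp4 made up 81.8% in the cold library and 91.7% in the control, and Fabp5 0.468% in the cold library and 2.07% in the control. The family's make-up therefore differed by more than counting error in each of its 3 genes. The shares are parts of 1 whole, so their differences are not independent. The share of Fabp4 was lower in the cold library although its level was 1.24-fold higher there (1.22 to 1.27). For each read of Fabp3 the cold library had fewer reads of both other genes than the control.

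**Figure D3:**
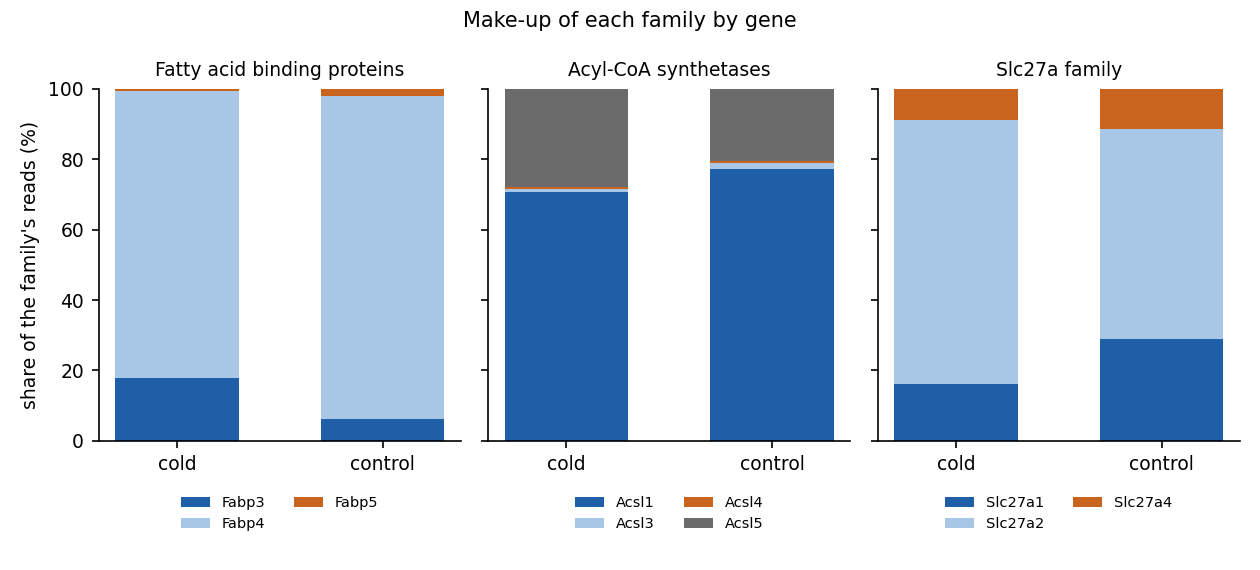
Share of each gene (percent, vertical axis, not divided by length) in the reads of its family, cold library left and control library right in each panel, 1 library each. The Fabp3 share is 17.7% in the cold library and 6.20% in the control, the Acsl5 share 27.9% in the cold library and 20.3% in the control, and the Slc27a2 share 75.0% in the cold library and 59.5% in the control.

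Fabp4 and Fabp5 each have a second annotated transcript that keeps introns. Fabp4-202 is a single exon of 4231 bases that keeps all 3 introns, of 2316, 607 and 670 bases. Fabp5-202 keeps introns 1 and 2, of 2252 and 328 bases, and is spliced at intron 3. The junctions are shown because they are where the annotated sequences of the 2 forms part. The counts are per transcript and do not show how many reads reach this junction. The first 30 bases of each line are the end of exon 1, and capitals mark the 30 bases that follow, intron 1 or exon 2 (GRCm38, coordinates and strand of exon 1 with the intron: chr3:10208409-10208468, - strand, for Fabp4 and chr3:10012689-10012748, + strand, for Fabp5). The first bases of exon 2 lie at chr3:10206093-10206122 for Fabp4 and chr3:10014971-10015000 for Fabp5.
Fabp4-202 exon 1 into intron 1: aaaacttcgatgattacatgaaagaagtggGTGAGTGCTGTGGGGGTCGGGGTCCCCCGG
Fabp4-201 exon 1 into exon 2: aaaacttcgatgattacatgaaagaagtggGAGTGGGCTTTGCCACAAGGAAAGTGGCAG
Fabp5-202 exon 1 into intron 1: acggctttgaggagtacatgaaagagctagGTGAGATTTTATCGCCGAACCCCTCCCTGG
Fabp5-201 exon 1 into exon 2: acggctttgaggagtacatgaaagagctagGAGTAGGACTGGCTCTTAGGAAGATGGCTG
Both introns open with GTGAG, the common form of a 5′ splice site.

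The unspliced Fabp4-202 had 300 reads in the cold library and 394 in the control. That was 1.44% of Fabp4 reads in the cold library (1.29 to 1.61) and 1.91% in the control (1.73 to 2.11), a difference of -0.47 percentage points (-0.72 to -0.22). The unspliced form did not share the higher level of the spliced form: Fabp4-201 was 1.25-fold higher in the cold library (1.23 to 1.27), while the ratio of Fabp4-202 was 0.939 (0.805 to 1.09). Fabp5-202 had 3 reads in the cold library and 30 in the control, a ratio of 0.123 (0.0241 to 0.397). Its share of Fabp5 reads was 2.52% in the cold library and 6.44% in the control, and the interval of the difference, -7.00 to 1.08 percentage points, included 0. Both forms made up a smaller share in the cold library, beyond counting error for Fabp4 alone.

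Acsl1 encodes the main long-chain acyl-CoA synthetase of adipocytes, which brown fat of mice needs to burn fatty acids in the cold. The gene (ENSMUSG00000018796, chr8:46471037-46536051, + strand) had 1967 reads in the cold library and 2218 in the control. Its level was 1520 RPM in the cold library and 1390 in the control, 1.09-fold higher in the cold library (1.03 to 1.16). A difference of this size is smaller than the shift between scalings, with a log2 ratio of 0.13 by trimmed means and 0.31 by total counts. Per kilobase it was the most abundant synthetase of the 4 in both libraries.

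Acsl5 encodes a synthetase of mitochondria and the endoplasmic reticulum. The gene (ENSMUSG00000024981, chr19:55251938-55297720, + strand) had 775 reads in the cold library and 585 in the control. Its level was 599 RPM in the cold library and 367 in the control, 1.63-fold higher in the cold library (1.47 to 1.82), at rank 760 of 7529. Within the family Acsl5 took 27.9% of reads in the cold library and 20.3% in the control, a difference of 7.56 percentage points (5.33 to 9.78). Acsl1 took 70.8% in the cold library and 77.1% in the control, a difference of -6.32 points (-8.60 to -4.03). The split between the 2 main synthetases thus leaned further to Acsl5 in the cold library, beyond counting error. Zdhhc6, opposite to part of Acsl5, had 19 reads in the cold library and 17 in the control.

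Acsl3 encodes a synthetase of the endoplasmic reticulum and of growing lipid droplets. The gene (ENSMUSG00000032883, chr1:78657825-78707743, + strand) had 20 reads in the cold library and 56 in the control. Its level was 15.5 RPM in the cold library and 35.1 in the control, 2.27-fold lower in the cold library (1.34 to 4.00), at rank 263 from the lowest. It was the only synthetase of the 4 with an interval below 1. Its share of the family's reads was 0.720% in the cold library and 1.95% in the control, a difference of -1.23 percentage points (-1.85 to -0.64) that does not depend on scaling. The reads lay on 3 protein-coding transcripts, of which Acsl3-201 had 16 reads in the cold library and 40 in the control. The counts are small, and with a minimum of 100 summed reads Acsl3 would not have been counted at all. Utp14b, on the same strand over part of Acsl3, had 5 reads in the cold library and 3 in the control.

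Acsl4 encodes a synthetase that prefers arachidonic acid and other long polyunsaturated fatty acids. The gene (ENSMUSG00000031278, chrX:142317993-142390535, - strand) had 15 reads in the cold library and 16 in the control. Its level was 11.6 RPM in the cold library and 10.03 in the control, and the ratio of 1.16 had an interval of 0.532 to 2.497. The interval takes in both equal levels and a 2-fold higher one, so a difference of that size was not detectable at this depth. Its reads were spread over 4 transcripts with 2 to 6 reads each in either library.

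Acsl1 has alternative first exons, and nearly all of its reads were on transcripts with the upstream start. Acsl1-201 had 1906 reads in the cold library and 2141 in the control, 96.9% of Acsl1 reads in the cold library and 96.5% in the control. Acsl1-203 starts at an inner first exon 19929 bases downstream and ends 470 bases short of Acsl1-201, and had 53 reads in the cold library and 69 in the control. This was 2.69% of Acsl1 reads in the cold library (2.02 to 3.51) and 3.11% in the control (2.43 to 3.92), a difference of -0.42 percentage points (-1.44 to 0.62). The share of Acsl1-203 did not differ beyond counting error, and it does not measure how often each start was used. The files give no read lengths, and a read that stops short of the first exon can be placed only by the rest of the transcript.

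The 250 bases upstream of each Acsl1 start are shown, from the RefSeq promoter table for GRCm38, because the read counts bear on which start was in use. They lie at chr8:46470787-46471036 and chr8:46490716-46490965, both on the + strand. Capitals mark matches on either strand to any of 5 motifs. These were the GC box with the letters GGGCGG, the CCAAT box, the nuclear receptor element with the letters AGGTCA, the TATA box as TATAAA, and the cAMP response element core as TGACGT.
Acsl1 upstream start: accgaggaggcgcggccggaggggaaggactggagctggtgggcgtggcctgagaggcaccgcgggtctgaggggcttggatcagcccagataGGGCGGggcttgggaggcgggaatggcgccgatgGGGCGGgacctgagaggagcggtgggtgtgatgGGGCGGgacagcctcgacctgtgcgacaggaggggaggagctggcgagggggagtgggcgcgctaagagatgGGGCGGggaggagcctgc
Acsl1 inner start: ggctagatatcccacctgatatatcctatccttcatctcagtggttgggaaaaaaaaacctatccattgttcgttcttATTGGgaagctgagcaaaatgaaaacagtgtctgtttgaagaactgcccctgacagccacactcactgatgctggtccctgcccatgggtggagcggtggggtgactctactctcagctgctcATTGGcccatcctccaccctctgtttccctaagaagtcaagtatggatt
The upstream window held 4 GC boxes and was 72% G and C, and the inner window held none and was 48.4% G and C. The inner window held 2 CCAAT boxes, both on the opposite strand, and the upstream window none. Neither held the other 3 motifs, and no matches overlapped. Among 32851 promoter windows of the same length, 32.7% held the GC box, 33.9% the CCAAT box, 14.02% the nuclear receptor element, 12.4% the TATA box and 6.47% the cAMP element core, and the median content of G and C was 52.4%. These matches describe letters and not sites of binding.

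The other transcripts of Acsl1 and Acsl5 were rare. Acsl1-204, which keeps an intron, had 5 reads in the cold library and 3 in the control, and Acsl1-202, Acsl1-207, Acsl1-210 and Acsl1-211 had 0 to 3 reads in either library. Acsl5-201 held 766 reads in the cold library and 579 in the control, 98.8% of Acsl5 reads in the cold library and 99.0% in the control. Acsl5-205 had 6 reads in the cold library and 1 in the control, and Acsl5-203 had 3 in the cold library and 5 in the control. None of these shares differed beyond counting error.

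**Figure D4:**
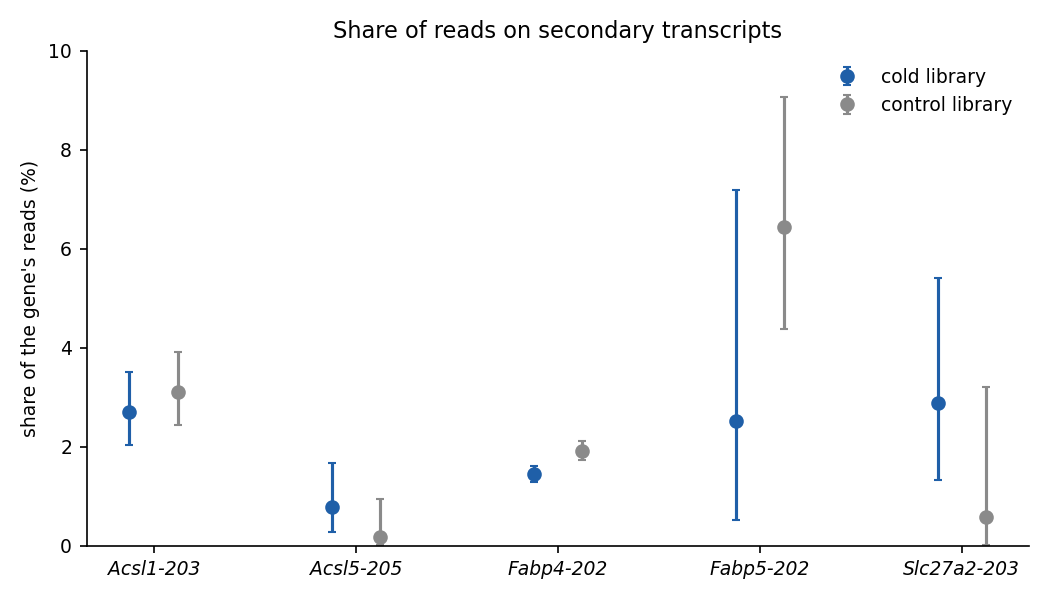
Share of the gene's reads (percent, vertical axis) on 5 secondary transcripts, cold library in blue and control library in grey, 1 library each, with exact 95% binomial intervals. Only for Fabp4-202, at 1.44% in the cold library and 1.91% in the control, did the interval of the difference exclude 0.

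Slc27a2 encodes fatty acid transport protein 2, a very long-chain acyl-CoA synthetase best known from liver and kidney. The gene (ENSMUSG00000027359, chr2:126552407-126588243, + strand) had 312 reads in the cold library and 172 in the control. Its level was 241 RPM in the cold library and 108 in the control, 2.24-fold higher in the cold library (1.85 to 2.71), at rank 272 of 7529. Per kilobase it was the most abundant Slc27a gene of the 3 in both libraries. It took 75.0% of the family's reads in the cold library and 59.5% in the control, a difference of 15.5 percentage points (8.46 to 22.4).

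Most Slc27a2 reads were on Slc27a2-201, with 302 in the cold library and 171 in the control. Slc27a2-203, a shorter coding transcript of 1478 bases, had 9 reads in the cold library and 1 in the control, a ratio of 11.1 (1.54 to 486). Its share of Slc27a2 reads was 2.88% in the cold library and 0.581% in the control, and the interval of the difference, -0.66 to 4.85 percentage points, included 0. Slc27a2-204 had 1 read in the cold library and 0 in the control.

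Slc27a1 encodes fatty acid transport protein 1, which in mice is needed for fatty acid uptake of brown fat in the cold. The gene (ENSMUSG00000031808, chr8:71568882-71587302, + strand) had 67 reads in the cold library and 84 in the control. Its level was 51.8 RPM in the cold library and 52.6 in the control, a ratio of 0.984 (0.703 to 1.37). Its share of the family was 16.1% in the cold library and 29.1% in the control, since Slc27a2 was higher in the cold library. For all Slc27a1 transcripts together, a 2-fold difference in level between these libraries lies outside the counting interval. No interval was made for the ratio of its coding transcripts summed.

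Slc27a1 reads were split between coding transcripts and transcripts annotated with a retained intron. Slc27a1-201 had 20 reads in the cold library and 23 in the control, and Slc27a1-207 had 13 in the cold library and 9 in the control. The other listed transcripts, Slc27a1-202 and Slc27a1-205, are of the second kind and reach 594 bases beyond the end of Slc27a1-201. Together they had 34 of 67 reads in the cold library, or 50.7% (38.2 to 63.2), and 52 of 84 in the control, or 61.9% (50.7 to 72.3). The difference of -11.2 percentage points had an interval of -26.3 to 4.62 that included 0. With protein-coding transcripts alone the log2 ratio of Slc27a1 was 0.35, and with all transcripts -0.02.

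Slc27a4 encodes fatty acid transport protein 4, known from intestine and skin. The gene (ENSMUSG00000059316, chr2:29802634-29817522, + strand) had 37 reads in the cold library and 33 in the control, all on Slc27a4-201. Its level was 28.6 RPM in the cold library and 20.7 in the control, and the ratio of 1.38 had an interval of 0.841 to 2.28. Slc27a1 and Slc27a4 thus did not differ beyond counting error, while Slc27a2 did.

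Among the close relatives of these genes, the lipid-binding proteins were mostly absent or low, while 10 of 17 other acyl-CoA synthetases were detected. Of 12 other intracellular lipid-binding proteins, among them Fabp1 of liver, Fabp2 of intestine and Fabp7 of brain, 9 had 0 reads in both libraries. Rbp7, a retinol-binding relative, was the only one with at least 20 reads, 50 in the cold library and 37 in the control, 1.67-fold higher in the cold library (1.07 to 2.62). Of 17 other acyl-CoA synthetases 7 had 0 reads in both libraries, Acsl6 and the transporters Slc27a5 and Slc27a6 among them.

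Among the 7 other synthetases with at least 20 reads, 1 was higher by 2-fold or more and 3 lower by 2-fold or more in the cold library, with a median log2 ratio of -0.59. Over all genes with at least 20 reads, 4.2% were higher and 4.08% lower by 2-fold or more. The cytosolic acetyl-CoA synthetase Acss2, which makes acetyl-CoA for lipid synthesis, had 113 reads in the cold library and 527 in the control, 3.78-fold lower in the cold library (3.08 to 4.68). Its mitochondrial counterpart Acss1 had 149 reads in the cold library and 90 in the control, 2.04-fold higher (1.56 to 2.68). The 2 acetyl-CoA synthetases thus lay on opposite sides of 1. Aacs, which activates acetoacetate in the cytosol, had 133 reads in the cold library and 451 in the control, 2.75-fold lower (2.26 to 3.36). The medium-chain synthetase Acsm3 had 9 reads in the cold library and 44 in the control, 3.96-fold lower (1.91 to 9.24). Acsf3, the mitochondrial malonyl-CoA synthetase, had 106 reads in the cold library and 140 in the control, with a ratio of 0.934 (0.718 to 1.21).

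Upstream of these genes, 13 of 14 genes of fatty acid delivery and uptake had at least 20 reads, 1 of them higher by 2-fold or more and none lower by 2-fold or more in the cold library. With no minimum fold, 5 intervals lay above 1 and 2 below, and the median log2 ratio was 0.20. Over all genes the shares were 4.2% higher and 4.08% lower at 2-fold, and 11.3% for intervals on each side of 1. Lpl, lipoprotein lipase, the source of fatty acids from blood lipoproteins, had 6743 reads in the cold library and 2827 in the control, 2.94-fold higher (2.81 to 3.07). Cd36, the fatty acid translocase, had 1851 reads in the cold library and 1505 in the control, 1.52-fold higher (1.42 to 1.62). The lipoprotein receptor Vldlr was 1.61-fold higher (1.25 to 2.08). On the other side were Angptl8, which acts with related proteins to restrain Lpl, 1.84-fold lower (1.35 to 2.55), and the caveolar coat gene Cavin1, 1.65-fold lower (1.25 to 2.21).

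Downstream, acyl-CoA is bound by acyl-CoA binding proteins and then used. Of 7 genes of acyl-CoA binding, 6 had at least 20 reads and none was apart by 2-fold or more, where 8.27% of all genes were. There was 1 interval above 1 and there were 2 below, where 11.3% of all genes lay on each side. The median log2 ratio of these 6 genes was -0.10 and was above 0 with total counts, at 0.08. Dbi, the acyl-CoA binding protein itself, had 2842 reads in the cold library and 5494 in the control, 1.57-fold lower in the cold library (1.498 to 1.64). Acbd4 was 1.83-fold lower (1.28 to 2.65), Scp2, a peroxisomal lipid carrier, 1.34-fold higher (1.25 to 1.44), and Acbd5 had a ratio of 1.11 (0.819 to 1.51). Dbi and Fabp4, carriers of the product and of the substrate of the same reaction, lay on opposite sides of 1.

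All 12 genes of acyl-CoA use had at least 20 reads. Of these, 2 were higher by 2-fold or more and none lower by 2-fold or more in the cold library, where 4.2% and 4.08% of all genes were. There were 9 intervals above 1 and 2 below, where 11.3% of all genes lay on each side. The median log2 ratio was 0.41. Cpt1a, which passes acyl groups to carnitine for entry into mitochondria, had 57 reads in the cold library and 13 in the control, 5.41-fold higher (2.92 to 10.8). The related gene Cpt1b had more reads, 562 in the cold library and 453 in the control, and was 1.53-fold higher (1.35 to 1.74). The mitochondrial thioesterase Acot2 was 2.58-fold higher (1.69 to 4.00). Agpat2, an acyltransferase of glycerolipid synthesis, had 2511 reads in the cold library and 4346 in the control, 1.40-fold lower (1.34 to 1.47). The thioesterase Acot11 was 1.46-fold lower (1.29 to 1.65), and Dgat2, which completes triglyceride, 1.15-fold higher (1.07 to 1.23).

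Of 9 transcriptional regulators of fatty acid handling, all with at least 20 reads, 2 were higher by 2-fold or more and 1 lower by 2-fold or more in the cold library, and the median log2 ratio was 0.12. The same shares over all genes were 4.2% higher and 4.08% lower. Ppargc1a, the coactivator PGC-1 alpha, had 132 reads in the cold library and 27 in the control, 6.03-fold higher (3.96 to 9.49). Ppara, a nuclear receptor for fatty acids, was 2.19-fold higher (1.26 to 3.87) and the orphan receptor Esrra 1.57-fold higher (1.33 to 1.86). Mlxipl, the glucose-sensing factor ChREBP, was 2.03-fold lower (1.64 to 2.52) and Srebf1, a factor of lipid synthesis, 1.54-fold lower (1.29 to 1.83). What these regulators have to do with the 10 genes was not tested.

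**Figure D5:**
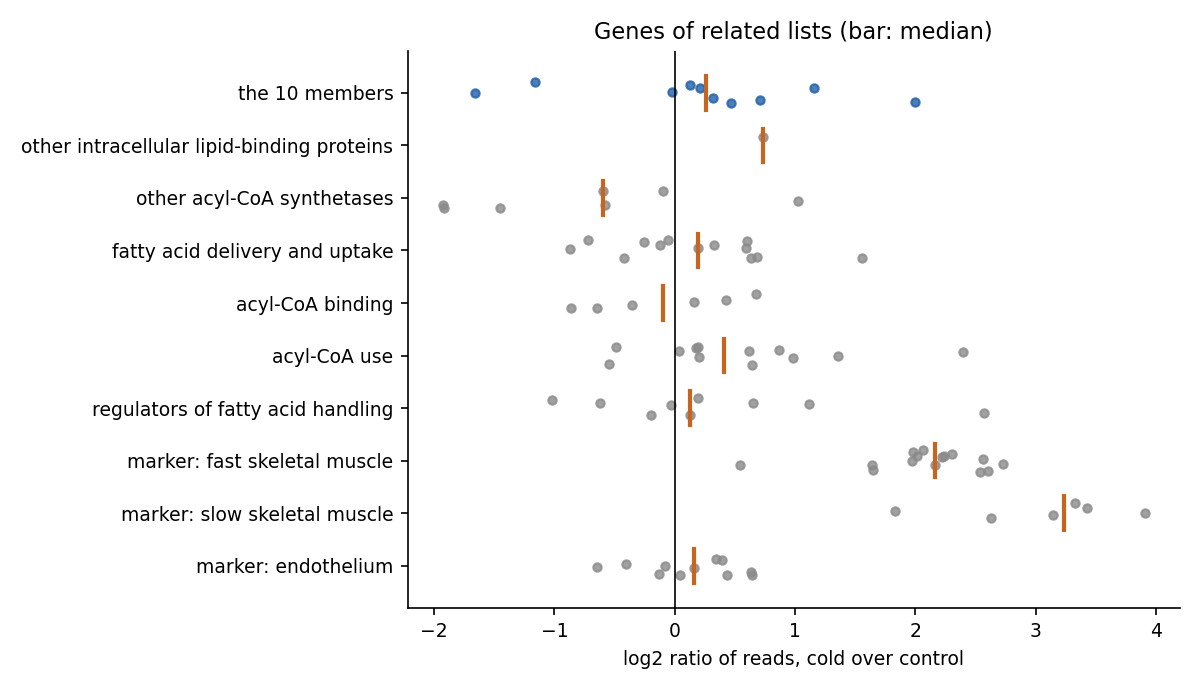
Log2 ratio of reads, cold library over control library (horizontal axis, prior count 0.5), for genes with 20 or more summed reads in each list, 1 library a group, with a bar at the list's median and vertical scatter for display only. The 10 genes run from -1.66 for Fabp5 to 2.00 for Fabp3 around a median of 0.26, the muscle markers have medians of 2.16 and 3.23, and the endothelial markers 0.16.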

How the data were processed

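The authors deposited whole-number read counts per transcript for 1 cold and 1 control library, not normalized, with transcripts at 0 not listed. Per the submitters' processing notes, minimap2 and GRCm38 were used. The aligner's version, the annotation release and how multi-matching reads were treated were not given in the sources used here. Transcripts were matched by identifier without version to GENCODE M21, also on GRCm38. For 79 transcripts in the cold library (793 reads) and 75 in the control (970 reads) no gene was found. These were kept as 99 single entries with no gene name, 14 of which had 20 or more summed reads and so stand among the 7529 genes of the background. Counts were summed to genes and scaled with edgeR 4.0.16 (R 4.3.3) TMM factors, 1.06 for cold and 0.940 for control, giving effective sizes of 1293824 and 1595479 reads. Ratios are cold over control of scaled counts, with 95% intervals made by the exact Clopper-Pearson method on the cold library's part of both counts, and log2 values use a prior of 0.5 reads. The 2-fold rule took genes apart by 2-fold or more, with an interval off 1, out of those with 20 or more summed reads. Transcript shares have exact binomial intervals, and their differences Newcombe intervals, where each library had 100 or more reads of the gene. Slc27a1, with 67 reads in the cold library and 84 in the control, was below this minimum. The grouped share of its transcripts with a retained intron was still given with both intervals. Intervals cover counting error only. The calculation was tested on simulated data.

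The 10 genes and all gene lists were chosen with earlier results of these data known, and the motifs with the sequences in view. Named from each list were, among genes with at least 50 summed reads, the 2 highest and 2 lowest ratios and the 2 with the most reads, and in addition all 10 genes and their listed transcripts. Ucp1, Myl2, Adgre1, Lep and Krt10 among the markers, Cpt1b, and the relatives given at 0 reads, were named after their values were seen. Promoter windows matched 8 of the 10 genes. Alternatives were DESeq2 1.42.0 size factors, total counts with and without mitochondrially encoded genes, other read minimums, a fold of 1.5, single or protein-coding transcripts, merged copies and a thinned control. Scripts used Python 3.11.15, SciPy 1.17.1 and pandas 2.3.3.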

Additional observations from a re-analysis of the deposited data

How the results depend on the processing

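With at least 100 summed reads 7 of the 10 genes were left, and the number lower by 2-fold or more and the number with an interval below 1 were both 1, since Acsl3 was no longer counted. Of all 2677 genes at that minimum, 5.83% passed the 2-fold rule (93 higher, 63 lower). The median log2 ratio of the 10 genes, 0.26, became 0.44 with total counts and 0.40 when these left out mitochondrially encoded genes, where the median of all genes was 0.18 and 0.13. Among all genes passing the 2-fold rule, 50.7% were higher in the cold library with trimmed means, 73.4% with total counts, 67.4% without mitochondrially encoded genes and 46.9% with DESeq2 size factors. Of 69 log2 ratios of single genes under another setting, 62 lay within the gene's counting interval. The other 7 were those of Fabp3 (2.17 and 2.13), Fabp4 (0.49 and 0.45) and Acsl1 (0.31 and 0.26) with total counts and without mitochondrially encoded genes, and of Acsl5 (0.89) with total counts. Some of the 62 could not have differed. The copies that were merged had 0 reads, and Fabp3 and Slc27a4 each had reads on 1 transcript alone. For Acsl3, Acsl4 and Acsl5 all reads were on protein-coding transcripts. None of the 7 genes with an interval off 1 changed direction. A minimum fold of 1.5 gave 3 genes higher and 2 lower, against 15.5% of all genes. Leaving muscle markers out of the background, chosen after seeing the data, gave 8.03% of all genes in place of 8.27%. No paired analysis was possible because each group has 1 library, and for the same reason no library could be left out. Depth limits Acsl3, Acsl4, Slc27a1 and Slc27a4, with 15 to 84 reads a library.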
